A study of Homo sapiens with 9 samples.

Results

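The genes described here are 10 actin-binding and contractile genes, many of them known targets of the serum response factor SRF, with the SRF gene itself among them: the calponins CNN2 and CNN3, the transgelins TAGLN and TAGLN2, the actins ACTG2 and ACTB, the tropomyosins TPM1 and TPM4, the myosin light chain MYL9, and SRF. All probes that bear one of these names in the deposited intensity table were taken, which gives 21 probes of 47230, and 10 of 31333 gene names. The genes were selected on earlier results of the same 9 arrays, in which CNN2, CNN3 and TAGLN passed the test between the 2 vectors, so the values and p-values below describe them and are no independent evidence of a direction. RNA was measured on an Illumina bead array in NCI-H716, an established human line of colorectal cancer cells that has enteroendocrine traits. There were 3 arrays of cells with a YAP mutant vector, 3 of cells with a control vector and 3 of untreated cells, and the cell line is the same in all 9. The labels name neither the YAP mutation, nor the vector type, nor a time after its delivery.

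Calponins and transgelins are small proteins that carry a calponin homology domain and bind along actin filaments, and tropomyosins lie along the filament and set which other proteins reach it. Many of their genes are switched on by SRF, which binds a DNA element called the CArG box and works with actin-sensing cofactors of the MRTF family or with ternary complex factors of the ETS family. YAP, the coactivator held in check by the kinases of the Hippo pathway, acts on DNA mainly through TEAD factors. YAP and the MRTFs both respond to the state of the actin cytoskeleton, and several cytoskeletal genes are known as targets of both.

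Median raw signals were 104.6, 122.3 and 122.0 in the YAP mutant vector arrays, 128.5, 119.7 and 104.2 with the control vector, and 125.2, 128.8 and 125.5 in the untreated arrays. One array of each vector was thus dimmer than the rest. Between 38.9% and 41.2% of probes exceeded background on an array. YAP1 had 1 probe, ILMN_1709479, which differed by 0.07 ± 0.11 on the log2 scale between the YAP mutant vector and the control vector (SE, n = 3 per group; limma, adjusted p = 0.965). Which part of the transcript it targets is not given in the sources used here, and so the labels were not checked by it. Of the 21 member probes, 16 passed the background filter and were tested. The other 5 were 1 of 2 CNN2 probes, 2 of 3 TAGLN probes and both MYL9 probes.

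The RefSeq promoter table (GRCh38.p14, from 250 bases before to 50 bases after the annotated start) matched 7 of the 10 genes. TAGLN, ACTB and MYL9 had no entry, so their promoters were not searched for any motif. Of the matched promoters 5 are shown because they belong to the 4 genes with a called probe that matched and to SRF. CNN2 lies at chr19:1026358-1026657, plus strand, CNN3 at chr1:94927061-94927360, minus strand, ACTG2 at chr2:73892758-73893057, plus strand, TAGLN2 at chr1:159925458-159925757, minus strand, and SRF at chr6:43171019-43171318, plus strand. Each is written 5′ to 3′ along its gene, and capitals mark CArG boxes in CNN2, ACTG2 and SRF and the AP-1 motif in TAGLN2.
CNN2: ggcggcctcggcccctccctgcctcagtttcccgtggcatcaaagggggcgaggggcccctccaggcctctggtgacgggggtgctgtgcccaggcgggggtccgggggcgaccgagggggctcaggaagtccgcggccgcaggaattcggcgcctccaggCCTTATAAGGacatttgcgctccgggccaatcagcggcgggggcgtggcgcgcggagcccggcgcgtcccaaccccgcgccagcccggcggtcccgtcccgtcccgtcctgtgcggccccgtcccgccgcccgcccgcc
ACTG2: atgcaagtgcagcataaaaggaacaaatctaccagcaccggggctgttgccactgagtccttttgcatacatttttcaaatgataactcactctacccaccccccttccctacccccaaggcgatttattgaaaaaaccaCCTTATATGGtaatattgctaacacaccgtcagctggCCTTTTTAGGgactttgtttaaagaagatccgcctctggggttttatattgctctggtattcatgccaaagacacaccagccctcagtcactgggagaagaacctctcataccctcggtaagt
SRF: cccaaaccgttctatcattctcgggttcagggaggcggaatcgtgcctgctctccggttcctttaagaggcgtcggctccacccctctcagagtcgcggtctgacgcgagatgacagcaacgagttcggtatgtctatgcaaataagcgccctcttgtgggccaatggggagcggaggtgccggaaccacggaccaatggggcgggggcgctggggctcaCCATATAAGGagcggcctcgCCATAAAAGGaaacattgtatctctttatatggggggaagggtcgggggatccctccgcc
CNN3: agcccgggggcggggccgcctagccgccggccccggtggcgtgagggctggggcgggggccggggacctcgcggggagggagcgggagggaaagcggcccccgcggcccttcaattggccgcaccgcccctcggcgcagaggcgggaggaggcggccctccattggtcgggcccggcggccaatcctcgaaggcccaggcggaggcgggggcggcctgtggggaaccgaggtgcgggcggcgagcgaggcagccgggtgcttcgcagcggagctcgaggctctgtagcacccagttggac
TAGLN2: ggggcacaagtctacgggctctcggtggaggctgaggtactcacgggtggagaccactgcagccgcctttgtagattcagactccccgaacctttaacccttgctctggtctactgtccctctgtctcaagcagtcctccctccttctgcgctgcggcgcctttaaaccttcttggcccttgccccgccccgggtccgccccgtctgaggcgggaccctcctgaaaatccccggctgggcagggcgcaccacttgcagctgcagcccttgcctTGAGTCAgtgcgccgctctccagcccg

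CNN2 had 1 CArG box, CCTTATAAGG, with its first base at -89 from the start (position 0 is the first transcribed base). ACTG2 had CCTTATATGG from -110 and CCTTTTTAGG from -73, and SRF had CCATATAAGG from -30 and CCATAAAAGG from -10. TPM4, whose tested probes passed no test between groups, had CCAAATAAGG from -173. In all, 4 of the 7 matched promoters held a CArG box, against 1.29% of the 35116 promoters of the table. The genes were chosen in part as known SRF targets, so that share is a description. The AP-1 motif TGANTCA, searched on both strands, occurred in TAGLN2 alone among the 7, as TGAGTCA from 23 bases past the start, and in 7.71% of all promoters. The TEAD motif GGAATG, searched on both strands, occurred in 0 of the 7 windows and in 14% of all promoters. CNN3 and TPM1 held none of these 3 motifs, which says only that the letters are not in these windows. No 2 matches overlapped.

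**Figure D1:**
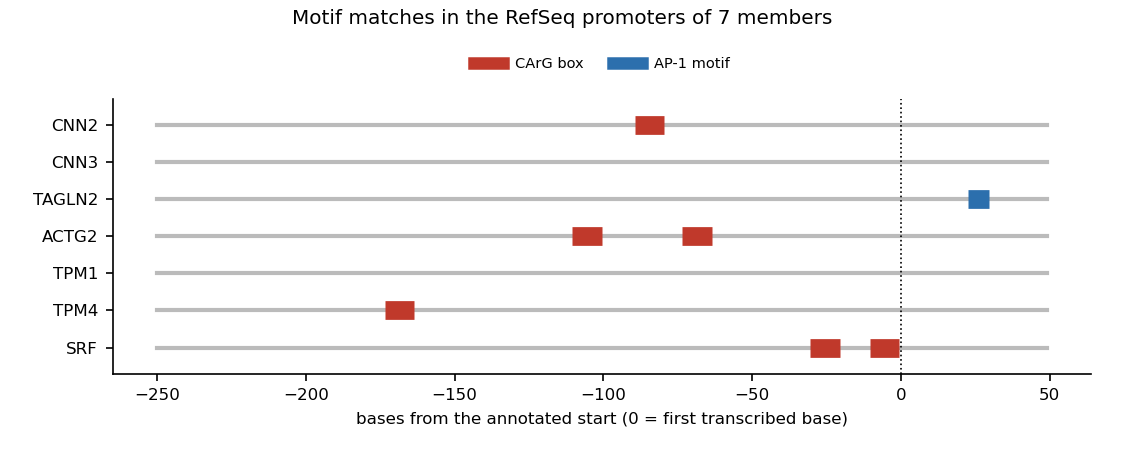
Positions of CArG boxes (red) and the AP-1 motif (blue) in the promoters of 7 genes, in bases from the annotated start, where the grey line is the window read. CNN2, ACTG2, TPM4 and SRF carry CArG boxes before the start, and ACTG2 and SRF carry 2 each.

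The YAP mutant vector was set against the control vector to ask which of these genes differ with the YAP mutant beyond the vector. CNN2, CNN3, TAGLN and ACTG2 rose, by 1.44-fold to 1.653-fold, while no tested probe of TAGLN2, ACTB, TPM1, TPM4 or SRF passed the test. Of the 16 tested member probes, 4 were called higher, where 0.277% of all 20218 tested probes were called higher. None was called lower (limma, 0 of 16), against 0.0198% of all probes, and 0 member probes had both an unadjusted p under 0.05 and a lower signal. The members' earlier values from this comparison helped to choose them, so nothing is read from that share. The median log2 difference of the 16 probes was 0.15 and 12 lay above 0, beside a median of -0.003 and 49% above 0 over all probes. In 6 of the 16, all YAP mutant vector arrays lay above all control vector arrays, as in 5.65% of all probes. In bulk samples such as these, more cells with a gene's RNA and more RNA per cell cannot be told apart.

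CNN2, a calponin found in many non-muscle cells, had log2 signals of 9.94, 10.19 and 9.88 in the YAP mutant vector arrays (probe ILMN_1770290), 9.33, 9.22 and 9.30 with the control vector, and 9.30, 9.31 and 9.33 in untreated cells. The YAP mutant vector arrays of CNN2 stood apart from the other 6, which ran from 9.22 to 9.33. The log2 difference of CNN2 between the vectors was 0.72 ± 0.10 (SE, n = 3 per group), which is 1.653-fold (limma, adjusted p = 9.19e-04), and it ranked 10 of 20218 probes by p. CNN2 lost its call when each array was scaled to one median (adjusted p = 0.272) and in none of the other 20 alternatives. The dim CNN2 probe, ILMN_1708486, was above background on 1 of 9 arrays, YAP mutant vector replicate 2, and was not tested.

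CNN3, the acidic calponin of non-muscle cells, had log2 signals of 9.62, 9.80 and 9.50 in the YAP mutant vector arrays (probe ILMN_1782439). They were 9.11, 9.23 and 8.94 with the control vector and 9.05, 8.91 and 8.99 in untreated cells. The YAP mutant vector arrays were again the 3 highest, whereas the ranges of the control vector and untreated arrays overlapped. CNN3 rose by 0.55 ± 0.11 between the vectors, or 1.46-fold (limma, adjusted p = 0.0232; SE, n = 3 per group). The call was lost in 8 of 21 alternatives, among them those without control vector replicate 1 or 3 and without YAP mutant vector replicate 1 or 2 (adjusted p = 0.0818, 0.157, 0.0908 and 0.216), and the difference ran from 0.47 to 0.62 over all 21.

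TAGLN, also called SM22 and an early marker of smooth muscle differentiation, was dim but above background on all 9 arrays at probe ILMN_1778668. Its log2 signals were 7.64, 7.87 and 7.52 in the YAP mutant vector arrays, 7.23, 7.17 and 7.05 with the control vector, and 6.74, 7.02 and 6.96 in untreated cells. The 3 groups of TAGLN did not overlap and stood in that order. TAGLN rose by 0.53 ± 0.11 between the vectors, or 1.44-fold (limma, adjusted p = 0.0404; SE, n = 3 per group). The call was lost in 11 of 21 alternatives, among them each fit without a control vector array (adjusted p = 0.0798, 0.138 and 0.179), without untreated replicate 3 (0.0573) and without YAP mutant vector replicate 1 (0.125) or 2 (0.335). The other TAGLN probes, ILMN_1706783 and ILMN_2400935, were above background on 2 and 0 of 9 arrays and were not tested.

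TAGLN2, the transgelin of epithelial and blood cells, was measured at 2 tested probes. Probe ILMN_2090105 had log2 signals of 11.04, 11.19 and 11.15 in the YAP mutant vector arrays, 10.82, 10.79 and 11.01 with the control vector, and 10.48, 10.28 and 10.40 in untreated cells. Its 3 groups did not overlap, but between the vectors the difference of 0.25 ± 0.10 was not called (95% interval 0.04 to 0.47; limma, adjusted p = 0.695). Probe ILMN_1691892 had 8.85, 8.61 and 8.70 in the YAP mutant vector arrays, 8.20, 8.54 and 8.60 with the control vector, and 8.30, 8.20 and 8.18 in untreated cells. That probe differed by 0.27 ± 0.11 between the vectors (95% interval 0.04 to 0.51, adjusted p = 0.713), with the lowest YAP mutant vector array at 8.61 and the highest control vector array at 8.60. Both intervals of TAGLN2 leave out 0 before adjustment for the number of probes.

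ACTG2, the enteric smooth muscle actin, had log2 signals of 7.37, 7.62 and 7.15 in the YAP mutant vector arrays (probe ILMN_1795325), 6.91, 6.77 and 6.73 with the control vector, and 6.59, 6.59 and 6.50 in untreated cells. The 3 groups of ACTG2 did not overlap. The difference between the vectors was 0.57 ± 0.11, or 1.49-fold (limma, adjusted p = 0.0228; SE, n = 3 per group). In untreated cells the raw ACTG2 signals were 140.7, 145.1 and 134.9, against background limits of 135.1, 138.0 and 134.2 on those arrays. So near background the fold depends on the correction: the ACTG2 difference was 0.76 with a smaller background offset of 16, where it was not called (adjusted p = 0.0899), and 0.45 with no background correction. The ACTG2 call was lost in 8 of 21 alternatives, among them those without control vector replicate 2 (0.122) or 3 (0.104) and without YAP mutant vector replicate 1 (0.0908) or 2 (0.237). YAP mutant vector replicate 2 was the highest of the 9 arrays for CNN2, CNN3, TAGLN and ACTG2 alike, and its part in these results is given by the fits without it.

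ACTB, the cytoplasmic beta-actin, was among the bright genes of the array, with log2 signals from 13.29 to 14.23 over its 3 probes and 9 arrays. Between the vectors ACTB differed by 0.17 ± 0.11 at probe ILMN_2152131, -0.04 ± 0.12 at ILMN_1777296 and 0.08 ± 0.12 at ILMN_2038777 (limma, adjusted p = 0.885 to 0.986), and at all 3 the arrays of the 2 groups overlapped. The widest 95% limits over these ACTB probes were -0.28 and 0.40, so a change as large as that of CNN2 lay outside the intervals.

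TPM1, the main tropomyosin of striated muscle with forms in most cells, was measured at 4 probes that may read different transcripts. The pair of bright probes, ILMN_2360710 and ILMN_1716687, averaged 11.69 ± 0.11 and 11.55 ± 0.18 in the YAP mutant vector arrays and 11.70 ± 0.07 and 11.46 ± 0.10 in the control vector arrays (SD, n = 3 each). The dim pair, ILMN_1685339 and ILMN_2278152, averaged 7.54 ± 0.09 and 7.38 ± 0.12 in the YAP mutant vector arrays and 7.32 ± 0.21 and 7.42 ± 0.15 in the control vector arrays. None of the 4 was called, the largest difference being 0.22 ± 0.11 at ILMN_1685339 (limma, adjusted p = 0.814). TPM4, a tropomyosin of the non-muscle cytoskeleton, differed by 0.13 ± 0.12 at ILMN_2140974 and 0.10 ± 0.10 at ILMN_1653180 (adjusted p = 0.938 and 0.945), with overlapping arrays at both.

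MYL9, the regulatory light chain of smooth muscle and non-muscle myosin, was above background on 0 of 9 arrays at probe ILMN_1675062 and on 0 of 9 at ILMN_1776953, and was therefore not tested in any comparison. SRF itself had log2 signals of 9.64, 9.70 and 9.83 in the YAP mutant vector arrays (probe ILMN_1803398), 9.79, 9.82 and 9.90 with the control vector, and 9.89, 9.81 and 9.86 in untreated cells. The difference of SRF between the vectors was -0.11 ± 0.10 (95% interval -0.32 to 0.09; limma, adjusted p = 0.938). The SRF arrays of the 2 vectors overlapped.

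**Figure D2:**
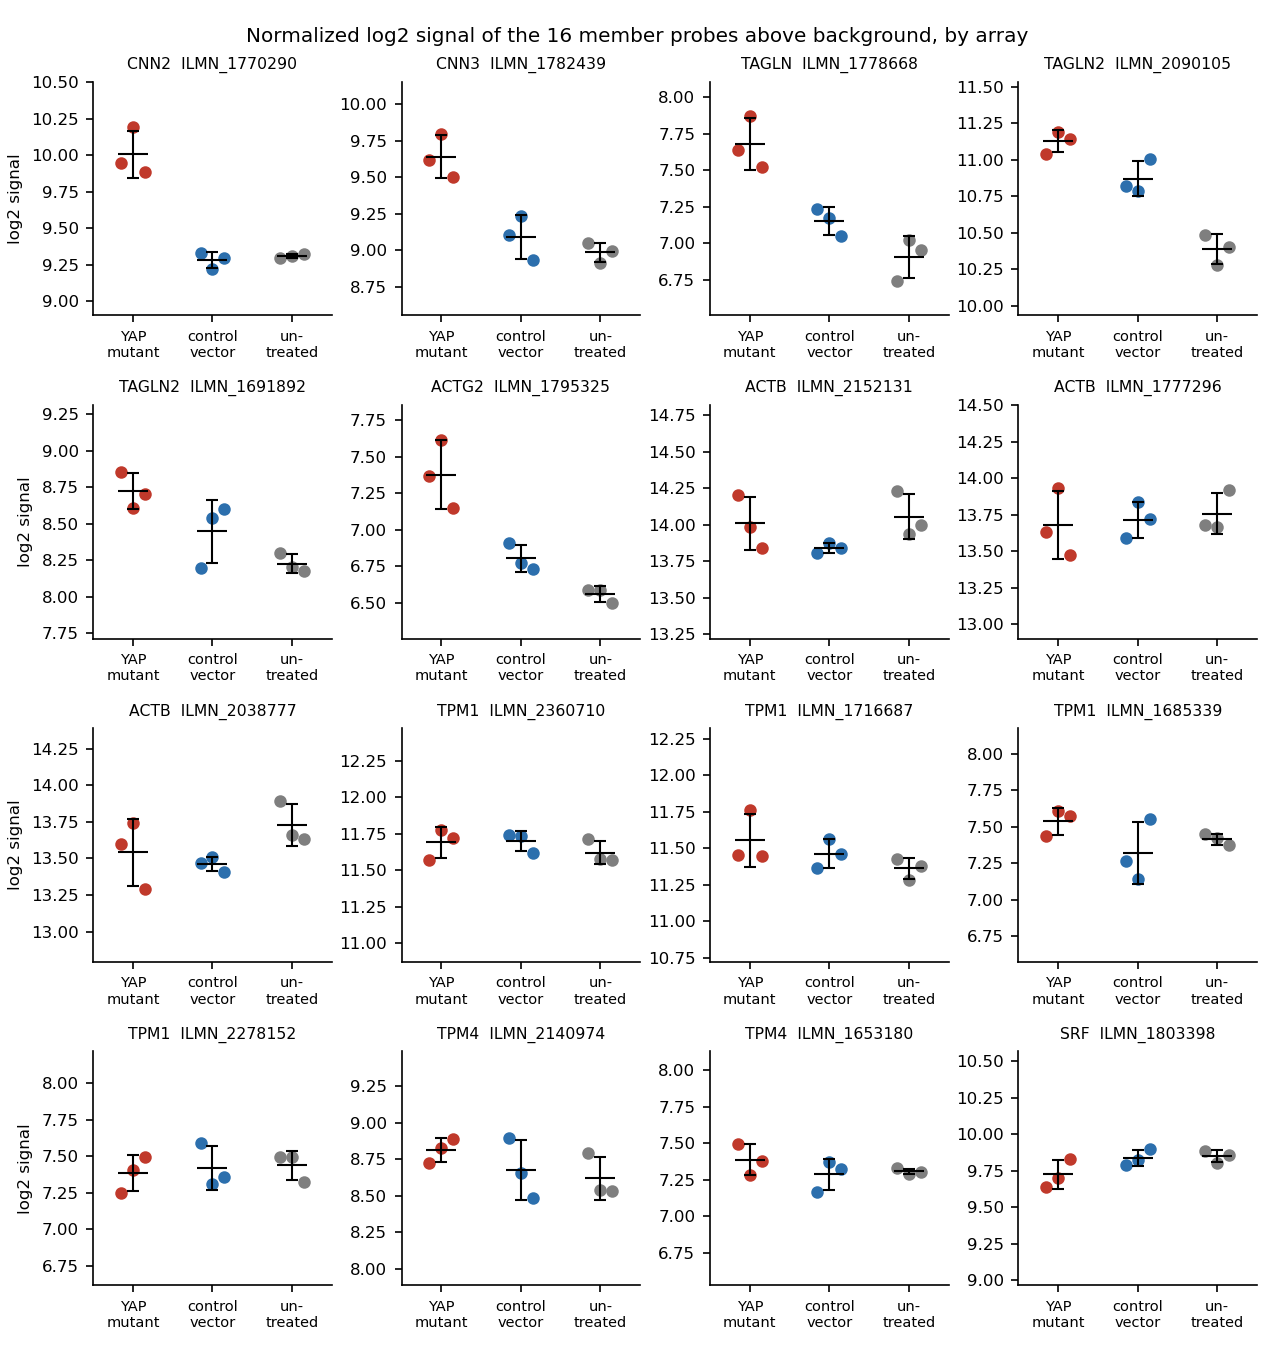
Normalized log2 signal of the 16 tested member probes in each array. Points are arrays in 3 groups (YAP mutant vector, control vector, untreated), the long bar is the mean and the short bars are 1 SD (n = 3), and every panel spans the same range of log2 signal. CNN2 and CNN3 separate the YAP mutant vector arrays from the other 6, TAGLN and ACTG2 form 3 steps, and the TAGLN2 probe ILMN_2090105 has its widest gap between the control vector and untreated arrays.

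The control vector was set against untreated cells to ask which of the genes differ with the vector alone. TAGLN2 rose by 0.48 ± 0.10 at probe ILMN_2090105, or 1.40-fold (limma, adjusted p = 0.0146; SE, n = 3 per group), and was the sole gene of the 10 with a called probe. Of the 16 member probes 1 was called higher, where 1.18% of all probes were, and 0 were called lower, where 0.539% of all probes were. A single call among 16 probes is too few to read against that share. Of the probes without a call, 2 had an unadjusted p under 0.05 with a higher signal, those of TAGLN and ACTG2, and 1 with a lower signal, an ACTB probe. The median of the 16 probes was 0.02 with 8 above 0, beside -0.003 and 49.1% over all probes. The control vector arrays lay above all untreated arrays at 3 member probes, against 9.45% of all probes, and below all of them at 2, against 8.8% of all probes.

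The second TAGLN2 probe, ILMN_1691892, differed by 0.22 ± 0.11 between the control vector and untreated cells (limma, adjusted p = 0.425), and control vector replicate 1 lay within the untreated range at 8.20. The TAGLN2 call at ILMN_2090105 was lost in 6 of 21 alternatives, among them those without untreated replicate 2 (adjusted p = 0.0917) or 3 (0.0526) and without control vector replicate 3 (0.11). TAGLN and ACTG2 each differed by 0.24 ± 0.11 (adjusted p = 0.352 and 0.36), with all control vector arrays above all untreated ones. CNN2 differed by -0.03 ± 0.10 (95% interval -0.24 to 0.19, adjusted p = 0.953) and CNN3 by 0.11 ± 0.11 (95% interval -0.12 to 0.33, adjusted p = 0.754). ACTB differed by -0.21 ± 0.11 at ILMN_2152131 and -0.27 ± 0.12 at ILMN_2038777 (adjusted p = 0.432 and 0.318), where all control vector arrays lay below all untreated ones, but by -0.04 ± 0.12 at ILMN_1777296. The TPM1, TPM4 and SRF probes lay between -0.09 and 0.10. That a gene passed the test against one group and not the other does not show that the 2 effects differ, and the difference between the 2 effects was not tested.

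The YAP mutant vector against untreated cells gives mutant and vector together, and shares its arrays with both comparisons above. CNN2, CNN3, TAGLN, ACTG2 and both TAGLN2 probes rose. The log2 difference was 0.82 ± 0.11 for ACTG2 (limma, adjusted p = 6.51e-05), 0.77 ± 0.11 for TAGLN (1.16e-04), 0.70 ± 0.10 for CNN2 (1.6e-04) and 0.65 ± 0.11 for CNN3 (6.05e-04; SE, n = 3 per group). TAGLN2 rose by 0.74 ± 0.10 at ILMN_2090105 (adjusted p = 8.04e-05) and by 0.49 ± 0.11 at ILMN_1691892 (adjusted p = 0.0114). In all, 6 of 16 member probes were called higher, where 2.96% of all probes were, and 0 were called lower, where 1.5% of all probes were, with 0 lower at an unadjusted p under 0.05. In 7 of the 16 the groups did not overlap, with the YAP mutant vector higher, against 11.4% of all probes, and the seventh was the TPM1 probe ILMN_1716687 (0.19 ± 0.11, adjusted p = 0.384). ACTB, TPM1, TPM4 and SRF lay between -0.19 and 0.19 with no call. The second TAGLN2 probe lost its call without untreated replicate 3 (0.0528) or YAP mutant vector replicate 1 (0.073). When each array was scaled to one median it lost its call too, as did CNN2 and CNN3 (adjusted p = 0.207, 0.0875 and 0.16).

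**Figure D3:**
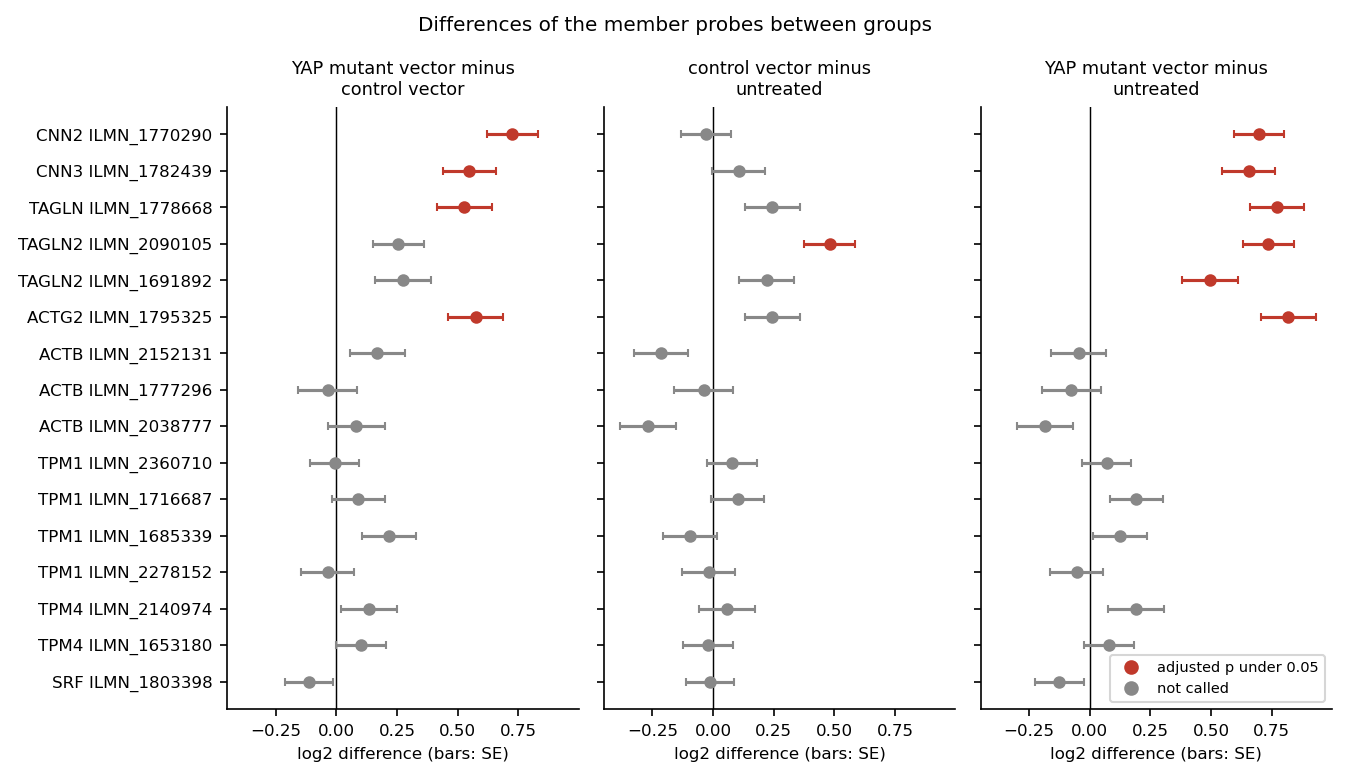
Log2 difference of each tested member probe in the 3 comparisons, with bars of 1 SE from the limma fit. Probes with an adjusted p under 0.05 are red: CNN2, CNN3, TAGLN and ACTG2 between the vectors, 1 TAGLN2 probe between the control vector and untreated cells, and 6 probes between the YAP mutant vector and untreated cells.

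**Figure D4:**
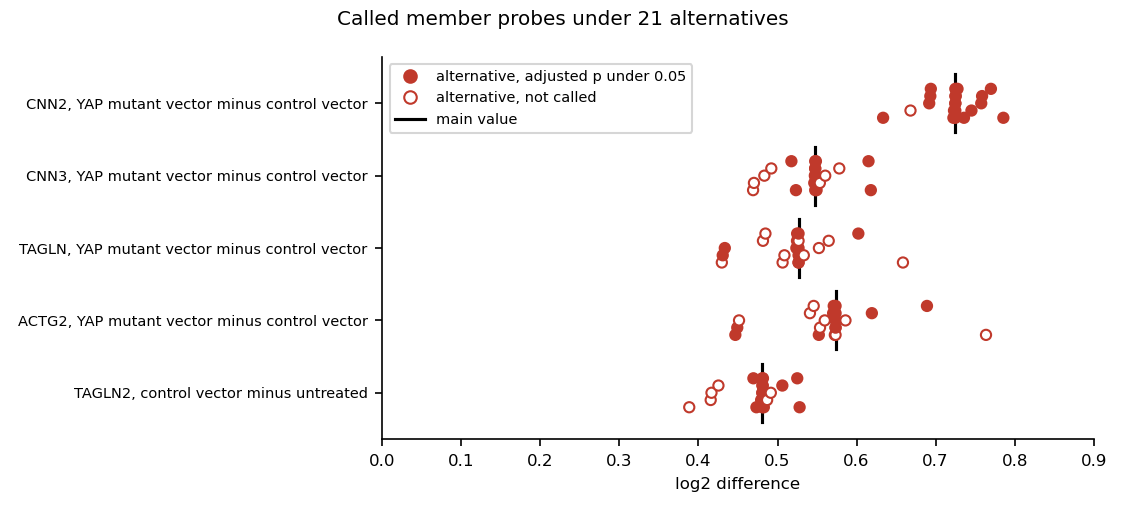
Log2 difference of the 5 member probes called in the 2 comparisons with the control vector, under each of 21 alternatives (points) and as reported (black line). All values lie above 0, and open points, where the call was lost, number 1 for CNN2, 8 for CNN3, 11 for TAGLN, 8 for ACTG2 and 6 for TAGLN2.

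Genes around these members were described through lists, each gene by its brightest tested probe. Among SRF cofactors and actin regulators upstream of SRF, 14 of 18 genes were tested and 0 passed the test in each of the 3 comparisons (limma), with 1, 1 and 3 at an unadjusted p under 0.05 between the vectors, between the control vector and untreated cells, and between the YAP mutant vector and untreated cells. Over all probes, 6.26%, 13.1% and 17.5% had such a p in those comparisons. The list's median between the vectors was -0.08, with 4 of 14 above 0. MRTFA, the actin-sensing SRF cofactor, its muscle-restricted relative MYOCD, the ternary complex factor ELK3 and the cofilin phosphatase SSH1 were not above background. The smallest p-values of that list between the vectors were those of RHOB, a small GTPase, at -0.30 ± 0.10 (limma, adjusted p = 0.486) and ELK4, another ternary complex factor, at -0.18 ± 0.10 (adjusted p = 0.84).

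Of 15 further actins, tropomyosins, calponin-family genes and myosin light chains, 10 were tested, 9 of them above 0 between the vectors with a median of 0.13, and none passed the test there (limma, 0 of 10, with 1 at an unadjusted p under 0.05). ACTA1, ACTA2 and ACTC1, the skeletal, smooth muscle and cardiac actins, and the smooth muscle calponin CNN1 were not above background. MYLK, the myosin light chain kinase, differed by 0.27 ± 0.11 between the vectors (adjusted p = 0.707), and the neuronal transgelin TAGLN3 by 0.23 ± 0.13 (adjusted p = 0.845). Against untreated cells 3 of the 10 rose with the YAP mutant vector: TAGLN3 by 0.61 ± 0.13 (adjusted p = 0.00569), CALD1, which encodes the actin-binding protein caldesmon, by 0.41 ± 0.10 (adjusted p = 0.0169), and MYLK, each at its brightest probe. MYLK probe ILMN_1691476 was above background on 3 of 3 YAP mutant vector arrays and 0 of 3 untreated arrays, and was at least 1.41-fold higher with the YAP mutant vector (adjusted p = 6.32e-04). The probes of MYLK disagreed: ILMN_2364768 was also called, at least 1.29-fold higher (adjusted p = 0.00347), while ILMN_1663427, above background on 2 arrays of each of these groups, differed by -0.09 ± 0.11 (adjusted p = 0.737). Both called MYLK probes passed the background filter through vector arrays alone, where they were higher. Their p-values against untreated cells are therefore not independent of that filter. The probes of CALD1 disagreed too, and its other 2 were not called, at 0.16 ± 0.12 for ILMN_2324002 and -0.06 ± 0.11 for ILMN_1717990 (adjusted p = 0.549 and 0.831). The second TAGLN3 probe, ILMN_2342554, was called at 0.44 ± 0.12 (adjusted p = 0.0326) but lost the call without untreated replicate 1 or 3 or YAP mutant vector replicate 1 or 2 (0.108 to 0.13). CALD1 at its brightest probe lost its call without untreated replicate 3 (0.0991) or YAP mutant vector replicate 3 (0.0582). That probe had log2 signals of 7.75, 7.77 and 7.78 with the YAP mutant vector and 7.60, 7.68 and 7.66 with the control vector. In untreated cells it was at 7.42, 7.42 and 7.26, so all control vector arrays of CALD1 lay above all untreated ones. The control vector alone gave 0 calls in this list, with 3 genes at an unadjusted p under 0.05, among them MYLK, at least 1.17-fold higher at ILMN_1691476 than in untreated cells (adjusted p = 0.0732), and TAGLN3 at 0.38 ± 0.13 (adjusted p = 0.153).

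Other actin-binding and focal adhesion genes regulated by SRF numbered 33, of which 30 were tested, with a median of 0.03 and 17 above 0 between the vectors. Of those 30, 3 had an unadjusted p under 0.05 there, and the smallest p-values were those of the actin crosslinker gene FLNA at 0.60 ± 0.16 (limma, adjusted p = 0.196) and of VCL, which encodes the focal adhesion protein vinculin, at 0.34 ± 0.11 (adjusted p = 0.461). FLNA was called without control vector replicate 1 (0.0489). Against untreated cells the LIM protein gene FHL2 rose by 0.65 ± 0.12 at ILMN_2355831 with the YAP mutant vector (limma, adjusted p = 0.00197). Its log2 signals were 8.17, 8.15 and 8.13 with the YAP mutant vector and 8.06, 7.97 and 7.89 with the control vector. In untreated cells they were 7.37, 7.86 and 7.27, so all control vector arrays lay above all untreated ones. Probe ILMN_1668411 had 7.15, 7.15 and 7.02 with the YAP mutant vector and 7.47, 7.06 and 7.14 with the control vector. Its untreated arrays were at 6.94, 7.02 and 6.67. With the control vector alone, SMTN, which encodes the smooth muscle protein smoothelin, fell by 0.40 ± 0.10 (adjusted p = 0.0467), a call lost in 16 of 21 alternatives, among them the fits without each array other than YAP mutant vector replicate 3 (adjusted p = 0.0523 to 0.168).

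SRF targets reached through ternary complex factors, which are mostly immediate early genes, lay mainly below 0 between the vectors. Of 12 tested genes 4 lay above 0 with a median of -0.17, and 5 had an unadjusted p under 0.05, where 6.26% of all probes did. FOS, a part of the AP-1 transcription factor, was the 1 called, and it fell (-0.79 ± 0.13; limma, adjusted p = 0.00266). With the control vector against untreated cells, FOS rose by 1.11 ± 0.13 (adjusted p = 2.94e-05) and its relative FOSB by 0.43 ± 0.10 (adjusted p = 0.0298). There 5 of the 12 had an unadjusted p under 0.05, where 13.1% of all probes did. The YAP mutant vector gave 0 calls of 12 against untreated cells and 3 at an unadjusted p under 0.05, where 17.5% of all probes had one. Of 18 YAP-TEAD targets 11 were tested, with a median of 0.18 between the vectors. In that list CCN2, the connective tissue growth factor, rose by 2.12 ± 0.14, the ferlin gene MYOF by 1.38 ± 0.12 and the LIM protein gene AJUBA by 0.79 ± 0.12 (adjusted p = 1.77e-09, 2.93e-07 and 0.00134). Other probes of CCN2 and MYOF were higher too, by narrower gaps. CCN2 probe ILMN_2115125 had 8.24, 8.45 and 7.97 with the YAP mutant vector and 7.03, 7.01 and 6.38 with the control vector. MYOF had 7.95, 7.90 and 7.65 against 6.90, 6.98 and 6.86 at ILMN_3302919, and 6.87, 6.79 and 6.80 against 6.26, 6.47 and 6.29 at ILMN_2370976. With the control vector alone, the stress gene GADD45A rose by 0.76 ± 0.13 and the tissue factor gene F3 fell by 0.47 ± 0.11 (adjusted p = 0.00156 and 0.0213). FOSB lost its call without untreated replicate 1 or 2 or any control vector array (0.0664 to 0.131), and F3 without any untreated array or control vector replicate 1 or 3 (0.056 to 0.141). With the YAP mutant vector against untreated cells, 4 YAP-TEAD targets were called higher, where 2.96% of all probes were, and 1 lower, where 1.5% were. GADD45A was at 0.80 and F3 at -0.60 there (limma, adjusted p = 3.2e-04 and 0.00124). The differences of CNN2, CNN3, TAGLN and ACTG2 between the vectors, at 0.53 to 0.72, were below the 0.79 ± 0.12 of AJUBA. Whether they differ from that of AJUBA was not tested. The AJUBA difference ran from 0.62 to 1.07 over the alternatives, and its call was lost without both dim arrays (limma, adjusted p = 0.0633).

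**Figure D5:**
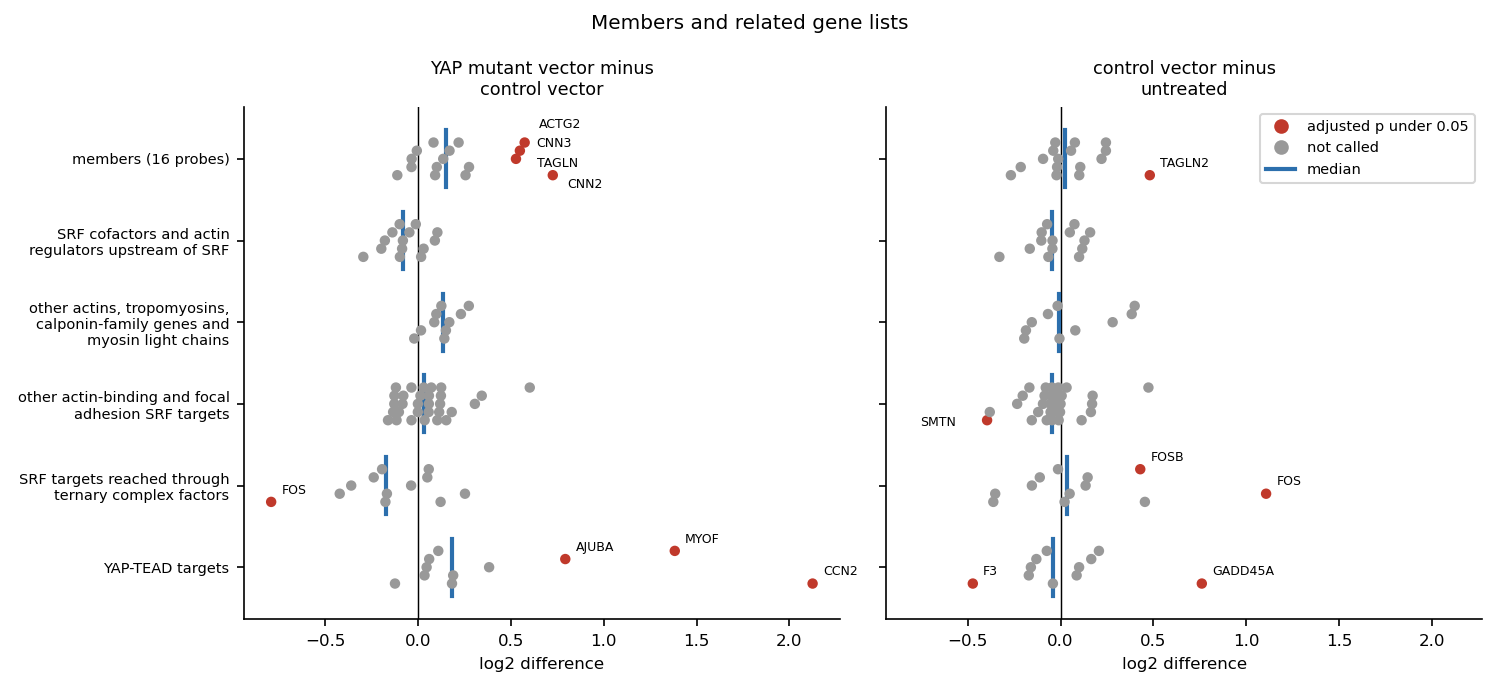
Log2 differences of the 16 member probes and of the tested genes of 5 lists (1 point each), between the vectors on the left and between the control vector and untreated cells on the right. Blue bars are medians and red points are called and named. Between the vectors the median is 0.15 for the members, 0.18 for the YAP-TEAD targets and 0.13 for the other actins, tropomyosins, calponin-family genes and myosin light chains. FOS lies lowest at -0.79. The members were chosen with earlier values of this comparison known, and some have several probes, so their median is not ranked against the lists.

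The named genes most like a member were sought by the root mean square difference of log2 profiles over the 9 arrays, each centred on its mean, among 11883 named genes. Nearest to CNN2 were CAVIN1, a coat protein of caveolae (0.09), MGC13057 (0.10), the receptor tyrosine kinase gene ERBB2 (0.10) and SEMA3B, a secreted semaphorin (0.10), where the median gene was at 0.37. All 4 were themselves called higher with the YAP mutant vector than with the control vector, by 0.58 to 0.66 (limma, adjusted p = 0.00342 to 0.0198). The search matched them to CNN2 on these same arrays, so their rise is part of how they were found and no separate evidence. The call of CAVIN1 ended on leaving out control vector replicate 2 (0.124), control vector replicate 3 (0.0758), YAP mutant vector replicate 1 (0.0985) or YAP mutant vector replicate 2 (0.205), and that of SEMA3B on leaving out control vector replicate 3 (0.0553) or YAP mutant vector replicate 2 (0.121). Nearest to CNN3 were HACD1 (0.07), RBMS2 (0.08), PLPP1 (0.10) and the epithelial transcription factor gene ELF3 (0.11), against a median of 0.33. Nearest to TAGLN were ELF3 (0.09), ACTG2 (0.09), RBMS2 (0.10) and PRODH (0.10), against a median of 0.37, so that ACTG2 was the member closest to another member in this search. These distances rest on the same 9 arrays and include the group differences. Between the vectors HACD1, RBMS2 and PLPP1 were called higher too (limma, adjusted p = 0.0234, 0.0301 and 0.0466), calls lost in 7, 7 and 14 alternatives. ELF3 and PRODH were not called (adjusted p = 0.191 and 0.373). RBMS2 passed the background filter in only 16 of the 21 alternatives, so it entered this search on few arrays above background.

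Since TAGLN, ACTG2 and SMTN are also known from smooth muscle and fibroblasts, markers of other cell types were measured on the same arrays. Of 8 smooth muscle markers 2 were tested, SYNPO2 and SMTN, and MYH11, DES, CNN1, LMOD1, MYOCD and ACTA2 were not above background. The summed signal of the 8 was 612 to 643 in the YAP mutant vector arrays, 600.0 to 631 with the control vector and 622 to 643 in untreated cells. Most of that sum comes from probes not above background, so the overlap of these ranges says little about smooth muscle markers. Of 10 fibroblast markers 7 were tested and 0 were called between the vectors (limma, 1 at an unadjusted p under 0.05). DCN, PDGFRB and THY1 were not above background. The summed fibroblast signal was 6159 to 8215 in the YAP mutant vector arrays, 6350 to 7961 with the control vector and 5541 to 6426 in untreated cells, and LUM rose with the YAP mutant vector against untreated cells by 0.51 ± 0.13 (limma, adjusted p = 0.0179), a call lost without untreated replicate 2 (0.0619) or 3 (0.0695) or YAP mutant vector replicate 1 (0.14). LUM had log2 signals of 11.40, 10.87 and 10.98 with the YAP mutant vector and 10.78, 11.10 and 11.07 with the control vector, which overlapped. In untreated cells LUM was at 10.64, 10.57 and 10.52, below all arrays of both vectors. The part of those fibroblast markers in the rises against untreated cells was not tested. Of 6 endothelial markers 0 were tested, and of 6 blood cell markers 3 were, with 0 called between the vectors (0 at an unadjusted p under 0.05) and CD14 called higher with the control vector than in untreated cells (0.43; adjusted p = 0.0436), a call lost without untreated replicate 1 or 3 or any control vector array (0.0647 to 0.21). The cell line's own enteroendocrine and epithelial markers were tested for 10 of 12 genes, with PCSK2 and VIL1 not above background. Of these 10, 0 were called between the vectors, 1 lower with the control vector and 2 lower with the YAP mutant vector against untreated cells, and 3 had an unadjusted p under 0.05 in each comparison. SCG2, which encodes the granule protein secretogranin II, had log2 signals of 11.49, 11.50 and 11.62 in the YAP mutant vector arrays, 12.04, 12.02 and 11.88 with the control vector, and 12.31, 12.41 and 12.50 in untreated cells, so the 3 groups did not overlap. SCG2 was at -0.44 ± 0.10 between the vectors (adjusted p = 0.0725), fell by 0.87 ± 0.10 with the YAP mutant vector (adjusted p = 7.33e-06) and by 0.43 ± 0.10 with the control vector against untreated cells (adjusted p = 0.0297). The last of these calls was lost without untreated replicate 2 or 3 or control vector replicate 2 or 3 (0.0628 to 0.167). PCSK1, a prohormone convertase, fell by 0.57 ± 0.11 with the YAP mutant vector against untreated cells (adjusted p = 0.00294). Its log2 signals were 11.40, 11.60 and 11.62 with the YAP mutant vector and 11.63, 11.82 and 11.79 with the control vector. In untreated cells they were 11.90, 12.16 and 12.27, so all control vector arrays of PCSK1 too lay below all untreated ones. The summed signal of the 12 markers was 41262 to 42668 in the YAP mutant vector arrays, 42160 to 46752 with the control vector and 41068 to 45322 in untreated cells. The part of these markers in the member differences was not tested.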

How the data were processed

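RNA from 9 samples of NCI-H716 cells was measured on an Illumina bead array, with 3 samples each for YAP mutant vector, control vector and untreated cells, grouped per the labels. The first deposited table holds the intensity of 47230 probes per array, exported with BeadStudio per the submitters' processing notes, and carries no detection p. A second table, also deposited, gives the authors' log2 values, and quantile normalization of the log2 intensities without background correction came within 0.005 of them. All columns were used (0 left out), and 0 pairs of arrays were identical.

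Background was corrected by normexp (offset 50) and arrays were quantile normalized as log2 values, using limma 3.58.1 (R 4.3.3). The planned detection filter could not be applied, so the stated substitute was used: a probe was kept if its signal exceeded, on at least 3 arrays, the array's mode plus 1.645 SD of the lower side. This kept 20218 probes. One fit with a mean per group (6 residual and 16.8 prior degrees of freedom) gave 3 comparisons, tested 2-sided with Benjamini-Hochberg adjustment over all kept probes and called at an adjusted p under 0.05. Old names were updated with RefSeq (4626 probes). A fold against a group with no array above background is a lower bound against the background of that group.

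The members and lists were chosen with earlier results of these data known. All member probes are named, with the called genes of each list (up to 5 per comparison), otherwise the 2 with the smallest p between the vectors, and the 4 genes nearest to CNN2, CNN3 and TAGLN. Further list and marker genes named as called against untreated cells or as not above background, and FLNA and VCL, were named after their values were seen. Of the list of other actin-binding and focal adhesion genes, 1 gene is not reported here and lies outside the counts and the plot of that list. Nothing says that replicates came from separate cultures, so each p-value reflects the spread of these arrays alone, possibly a technical one. Slide and scan are not given in the sources used here. The number of arrays limits the precision of every value. Alternatives changed the background correction, normalization, filter, probe choice, variance model, samples and pairing. The steps were tested on simulated data.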

Additional observations from a re-analysis of the deposited data

How the results depend on the processing

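In 21 alternatives the 11 called differences of member probes kept their sign, and of the 37 not called none passed the test in any of them. Over all probes, 60 were called between the vectors, 348 between control vector and untreated arrays and 902 between YAP mutant vector and untreated arrays, with 4, 1 and 6 member probes among them. With a normexp offset of 16 the counts were 25, 133 and 529, and the member counts between the vectors and between control vector and untreated arrays were 1 and 0. With arrays scaled to a common median the counts were 12, 54 and 215, and the member counts 0, 0 and 3. Without both dim arrays the counts with the control vector were 12 and 168, and the member counts 1 and 0. With only the 2 groups compared, 1 member probe was called between the vectors. The causes were not tested. Leaving out 1 array at a time gave 24 to 55 calls between the vectors (24 without YAP mutant vector replicate 2), 177 to 404 between control vector and untreated arrays (177 without control vector replicate 3) and 536 to 988 between YAP mutant vector and untreated arrays (536 without YAP mutant vector replicate 3). Member counts were then 1 to 4 and 0 to 1 in the comparisons with the control vector. No pairing by replicate number was seen: deviations of equal numbers correlated at -0.202 to 0.159, and those of unlike numbers at -0.15 to 0.2. With 3 arrays per group, that check cannot show that the samples were unpaired. With a replicate block the counts were 59, 377 and 971, with 4, 1 and 6 member probes, and of the named genes PLPP1 and SMTN lost their calls.

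Of the 37 differences not called, 16 changed sign somewhere, all within 0.083 of 0 after the change. Between the vectors, TPM1 at ILMN_2360710 was 0.0024 with cyclic loess and 0.012 without both dim arrays, and -0.050 to 0.052 leaving out 1 array, and at ILMN_2278152 it was 0.0021 without both dim arrays and -0.091 to 0.049 leaving out 1 array. Leaving out 1 array gave -0.015 to 0.15 for TPM1 at ILMN_1716687, -0.16 to 0.067 for ACTB at ILMN_1777296 and -0.018 to 0.21 for ACTB at ILMN_2038777. Between control vector and untreated arrays, scaling to a common median gave -0.030 for TPM1 at ILMN_2360710 and -0.010 for TPM4 at ILMN_2140974, and 0.012 was found for TPM1 at ILMN_2278152 without both dim arrays. Leaving out 1 array there gave -0.051 to 0.0032 for CNN2 at ILMN_1770290, -0.10 to 0.040 for ACTB at ILMN_1777296, -0.10 to 0.035 for TPM1 at ILMN_2278152, -0.052 to 0.15 for TPM4 at ILMN_2140974, -0.063 to 0.039 for TPM4 at ILMN_1653180 and -0.044 to 0.011 for SRF at ILMN_1803398. Between YAP mutant vector and untreated arrays, TPM1 was -0.083 at ILMN_2360710 with a common median and 0.014 at ILMN_2278152 without both dim arrays. Leaving out 1 array gave -0.14 to 0.041 for ACTB at ILMN_2152131, -0.20 to 0.028 for ACTB at ILMN_1777296 and -0.11 to 0.014 for TPM1 at ILMN_2278152. The ACTG2 signal of untreated cells lay near background, and MYL9 could not be tested.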
